A study of Mus musculus with 8 samples.

Results

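Very long chromatin loops were the pairs of H3K27ac-marked sites whose anchor midpoints lay 500 kb or more apart, up to the limit of about 2 Mb at which the deposited loop table stops. They numbered 230629 of the 415681 loops in the series' table of raw counts, and all 8 libraries were used. Most were seen too rarely to compare between cell lines. Recurrent loops, which had 5 or more counts in 2 or more libraries, numbered 3092 among the very long ones and 44706 in the whole table, so 1.34% of very long loops were recurrent against 20.5% of the shorter ones.

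The libraries came from mouse embryonic stem cells grown in serum with LIF and the inhibitors PD0325901 and CHIR99021, in 4 lines with 2 technical replicates each. B6 (line B6 5-1) was C57BL/6J and D2 (line D2 5-5) was DBA/2J. The line B6-13D2 (QJ 6-1, strain B6.D2-(rs30079041-rs51756099)/Bakr) carried an interval of D2 chromosome 13 in an otherwise B6 genome. The reciprocal line D2-13B6 (XE 2-4, strain D2.B6-(rs29224292-rs13469455)/Bakr) carried the B6 interval in a D2 genome, and the series text gives rs51756099 as the second marker of that line. Each genotype was therefore 1 cell line, and p-values measure only the spread between technical libraries of those lines. Below, the D2 background means lines D2 and D2-13B6, and the D2 allele of the interval means lines D2 and B6-13D2.

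HiChIP joins DNA ends that lie near each other in the nucleus and then enriches fragments that carry a chromatin mark. Acetylated lysine 27 of histone H3 is found at active promoters and enhancers, so each count is a read pair that joins an acetylated site to another site. Contacts become rarer with distance along the chromosome. Contacts over very long distances are known to join active genes that gather in the same nuclear neighbourhood, such as replication-dependent histone genes at the histone locus body, and domains bounded by the DNA-binding protein CTCF, whose motifs at loop ends often point towards each other.

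The sequences shown first lie in the anchors of very long loops on which the later results turn. Of these, the Zfp141, Zfp981 and Zfp985 promoters lie in the pair of 5-kb bins with most counts of their loop and the others lie outside it, so none is shown to be a contact site. The CTCF-like motif, CCA, any 2 bases, AGG, any base and GGC, was searched on both strands of every anchor, and it occurred in 11.3% of all anchors. In the windows below its 12 bases are in capitals, with 20 bases of flank on each side, read 5′ to 3′ on the strand of the motif (GRCm38). The loop from the pluripotency gene Esrrb to Vipas39 on chromosome 12 had 1 such motif at each end, in convergent orientation, at chr12:86482156-86482167 (plus strand) and chr12:87299770-87299781 (minus strand):
Esrrb window: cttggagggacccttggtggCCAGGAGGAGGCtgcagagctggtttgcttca
Vipas39 window: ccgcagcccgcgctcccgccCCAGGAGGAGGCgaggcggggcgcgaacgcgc
The loop from Gm14393 to Gm14401 on chromosome 2, among the 3 longest recurrent loops, had near-identical windows at its ends, at chr2:175075825-175075836 (minus strand) and chr2:177067383-177067394 (plus strand). They were identical at 51 of 52 positions, and the difference was A7G, counted from 1 at the 5′ end of the first window:
Gm14393 window: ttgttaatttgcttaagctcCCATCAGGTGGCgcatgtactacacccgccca
Gm14401 window: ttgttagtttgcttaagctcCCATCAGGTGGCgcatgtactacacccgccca

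Promoters at loop ends are given from RefSeq on GRCm38.p6, from 250 bases before to 50 bases after the annotated start. Capitals mark the TATA motif TATAAA and the CCAAT motif CCAAT, each searched on both strands, and the 2 motifs do not overlap in letters. Of all 32851 promoters in the table, 13.6% held TATAAA and 37.4% held CCAAT. Among the 3280 promoters whose start lay in an anchor of a recurrent very long loop these shares were 7.87% and 38.7%. Of 63 promoters of replication-dependent histone genes, matched by symbol, 34 held TATAAA and 52 held CCAAT. The first pair lies in the anchors of the strongest very long loop, on chromosome 7, whose strongest bin at the Gm6871 end is chr7:41595001-41600000 (Gm6871 at chr7:41560780-41561079 and Zfp141 at chr7:42505704-42506003, both minus strand):
Gm6871 promoter: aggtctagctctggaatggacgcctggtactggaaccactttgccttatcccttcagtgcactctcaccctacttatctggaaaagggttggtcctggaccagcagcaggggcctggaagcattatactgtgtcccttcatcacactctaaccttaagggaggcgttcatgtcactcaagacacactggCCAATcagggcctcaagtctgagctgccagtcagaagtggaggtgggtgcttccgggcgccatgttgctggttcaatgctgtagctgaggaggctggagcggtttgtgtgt
Zfp141 promoter: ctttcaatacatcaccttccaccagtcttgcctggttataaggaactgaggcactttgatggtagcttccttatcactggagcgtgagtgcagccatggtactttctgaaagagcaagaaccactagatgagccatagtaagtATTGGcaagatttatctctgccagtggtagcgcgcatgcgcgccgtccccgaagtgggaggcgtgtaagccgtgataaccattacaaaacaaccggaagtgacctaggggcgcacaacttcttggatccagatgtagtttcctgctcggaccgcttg
The second pair lies at the ends of a loop between zinc finger genes on chromosome 4 (Zfp981 at chr4:146514670-146514969 and Zfp985 at chr4:147553027-147553326, both plus strand). In a global alignment these promoters were identical at 244 of 300 positions (81.3%), against 63.3% for Gm6871 and Zfp141:
Zfp981 promoter: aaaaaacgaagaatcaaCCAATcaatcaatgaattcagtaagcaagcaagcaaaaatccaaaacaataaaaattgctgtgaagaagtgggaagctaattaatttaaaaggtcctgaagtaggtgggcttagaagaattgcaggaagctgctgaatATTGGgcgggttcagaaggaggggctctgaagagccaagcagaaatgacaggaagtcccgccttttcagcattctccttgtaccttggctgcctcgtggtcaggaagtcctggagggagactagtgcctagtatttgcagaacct
Zfp985 promoter: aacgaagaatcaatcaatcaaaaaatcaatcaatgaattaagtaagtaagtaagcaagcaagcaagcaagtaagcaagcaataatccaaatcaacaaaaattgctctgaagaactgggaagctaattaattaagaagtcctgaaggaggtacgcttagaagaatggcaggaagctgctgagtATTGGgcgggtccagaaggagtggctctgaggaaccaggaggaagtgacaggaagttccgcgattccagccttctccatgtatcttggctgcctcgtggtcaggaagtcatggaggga
The third pair, of histone H2B genes that held both motifs, lies at the ends of a loop across the histone gene cluster of chromosome 13 (H2bc12, named Hist1h2bk in GENCODE, at chr13:22035571-22035870, and H2bc3, named Hist1h2bb, at chr13:23746484-23746783, both plus strand):
H2bc12 promoter: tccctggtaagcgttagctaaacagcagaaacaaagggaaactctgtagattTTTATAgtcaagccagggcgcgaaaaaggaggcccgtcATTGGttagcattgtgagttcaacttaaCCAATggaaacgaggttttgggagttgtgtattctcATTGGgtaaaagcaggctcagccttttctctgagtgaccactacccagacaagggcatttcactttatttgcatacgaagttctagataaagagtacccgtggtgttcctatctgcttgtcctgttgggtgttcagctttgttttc
H2bc3 promoter: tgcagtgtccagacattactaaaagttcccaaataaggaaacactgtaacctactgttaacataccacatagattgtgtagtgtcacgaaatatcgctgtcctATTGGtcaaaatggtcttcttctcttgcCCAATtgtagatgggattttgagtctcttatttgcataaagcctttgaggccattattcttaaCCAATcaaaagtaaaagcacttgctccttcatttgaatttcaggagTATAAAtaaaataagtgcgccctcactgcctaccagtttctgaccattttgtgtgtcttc

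Library totals ran from 737955 to 1425304 counts, of which 76423 to 116846 fell in very long loops. Markers of embryonic stem cells were present as labelled: all 10 had an anchor at their start, with a summed level of 4929 to 6371 CPM (counts scaled to equal library totals) per library. Of 10 fibroblast markers 6 had an anchor, with a sum of 55.3 to 101 CPM. For primitive endoderm 1 of 6 had one (Pdgfra, 4.42 to 12.6 CPM), for trophectoderm 1 of 6 (Cdx2, 8.11 to 14.3 CPM), and for primed or early neural cells 2 of 6 (49.4 to 90.2 CPM). Chromosome 11 held 16.1% of very long counts in both D2-13B6 libraries and 10.96% to 11.6% in the other 6 libraries, so results on chromosome 11 are marked where they occur. Variation between replicates was taken over loops with 10 or more counts in the 2 libraries of a line together. Very long loops varied close to counting noise (chi-square per degree of freedom 1.02 to 1.07), whereas loops of every span varied more (1.05 to 1.21). The 2 sets were not matched for count.

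Very long contacts thinned out with distance in every library. The mean level per 100-kb bin fell from 14002 CPM at 500 to 600 kb to 2959 CPM at 1900 to 2000 kb, a ratio of 4.73. Recurrent loops thinned faster, from 673 to 64, a ratio of 10.5. Of all pairs of anchors at these distances, the share joined by at least 1 count fell from 59.5% to 27.7%, so a single count at this range was common. Single-count loops made up 48.7% of the very long loops. Distances of 2 Mb or more held 729 loops, of which 3 were recurrent. At the lower limit there was no step: the 76 recurrent loops of 490 to 500 kb had a median total of 37.5 counts over the 8 libraries (range 16 to 321), and the 88 loops of 500 to 510 kb had a median of 33 (17 to 154).

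**Figure D1:**
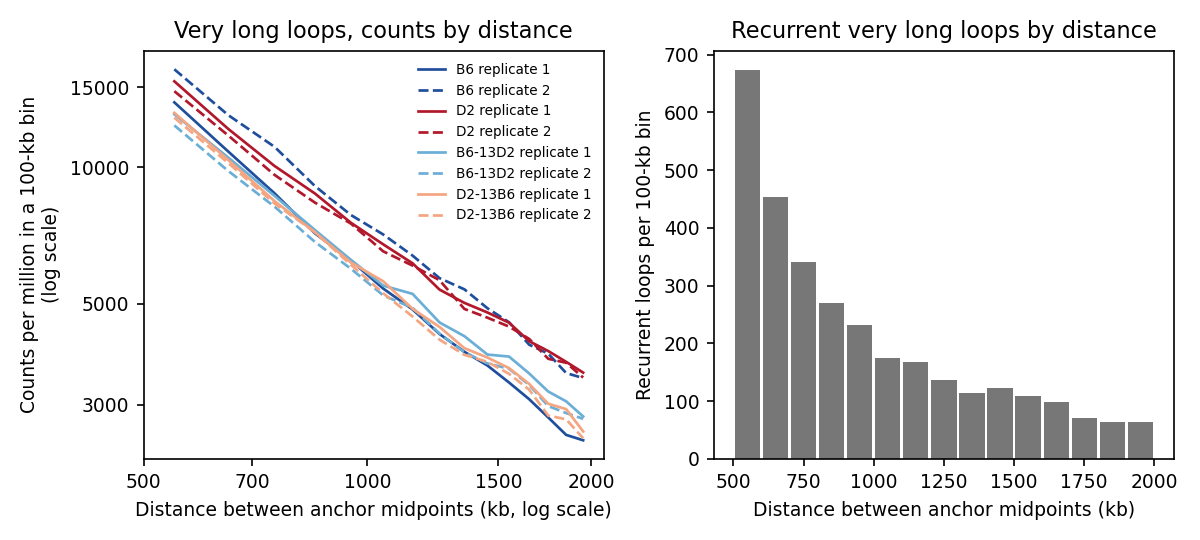
Left, level in CPM of each library total in bins of 100 kb of anchor distance, on log axes, for the 8 libraries (solid lines replicate 1, dashed lines replicate 2). Right, recurrent very long loops per bin, from 673 at 500 to 600 kb to 64 at 1900 to 2000 kb. All 8 lines fall, and B6 replicate 2 and both D2 libraries lie above the others.

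The share of each library that lay in very long loops separated D2 from the congenic lines but split the B6 line. It was 8.35% and 10.7% in the B6 libraries, 10.2% and 9.95% in D2, 8.58% and 8.10% in B6-13D2, and 8.38% and 8.15% in D2-13B6. Means were 9.80% ± 1.01 (SD, n = 4) in the parental lines and 8.30% ± 0.223 (SD, n = 4) in the congenic lines, and the groups overlapped (exact permutation test, two-sided, p = 0.0857, adjusted over 9 tests 0.257). Background and interval allele showed differences of 0.25 points (exact p = 0.886, adjusted 0.971) and 0.327 points (exact p = 0.857, adjusted 0.971). The 3 libraries with the highest shares were also the 3 with fewest counts in all, at 737955, 768078 and 831446, and the part of depth in the shares was not tested. Thinned to 737955 counts each, libraries would hold 56639 distinct very long loops in B6 replicate 2, 54302 and 52749 in D2, and 42647 to 45341 in the other 5 libraries.

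Within the very long range, the decline with distance was shallower where the chromosome 13 interval was of D2 origin, but the difference did not pass after adjustment. The slope of log10 counts on log10 distance from 500 kb to 2 Mb was -1.35 and -1.23 in B6, -1.26 and -1.23 in D2-13B6, -1.18 and -1.17 in B6-13D2, and -1.15 and -1.12 in D2. Every D2-allele library was shallower than every B6-allele library, 16 of 16 pairs. Means were -1.15 ± 0.0278 (SD, n = 4) and -1.27 ± 0.0548 (SD, n = 4), a difference of 0.113 (exact permutation test, two-sided, p = 0.0286, the smallest that 4 against 4 allows; adjusted over 9 tests 0.129). The adjusted value misses the 0.05 threshold. Each group of 4 libraries holds 2 technical replicates of each of 2 lines, which the test treats as separate, and with lines as the units the smallest p would be 0.333. Without chromosomes 11 and 13 the difference was 0.114, and without B6 replicate 1, the steepest library, it was 0.086.

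The share of very long counts at 1 Mb or more was 47.1% ± 0.534 (SD, n = 4) with the D2 allele and 45.2% ± 1.00 (SD, n = 4) with the B6 allele, 16 of 16 pairs (exact permutation p = 0.0286, adjusted 0.129). This share and the slope are computed from the same counts and are not separate evidence. For the background the difference in share was 0.68 points (exact p = 0.486, adjusted 0.874) and in slope 0.0448 (exact p = 0.4, adjusted 0.874). Parental against congenic lines differed by 0.136 points in share (exact p = 0.886, adjusted 0.971) and by -0.000801 in slope (exact p = 0.971, adjusted 0.971).

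Fitted for each of the 19 autosomes apart, the B6-13D2 mean was shallower than the B6 mean on 19, and the D2 mean shallower than the D2-13B6 mean on 18. Every D2-allele library was shallower than every B6-allele library on 8 of the 19. Chromosome 13, which carries the interval, was the exception between D2 and D2-13B6 (D2 -0.903, D2-13B6 -0.888), while its B6 mean was -1.24 and its B6-13D2 mean -0.932. Chromosomes share their libraries and are no replicates. Between 100 and 500 kb the slopes of the groups overlapped, at -1.42 and -1.43 in D2, -1.48 and -1.52 in B6-13D2, -1.47 and -1.34 in B6, and -1.49 and -1.51 in D2-13B6.

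**Figure D2:**
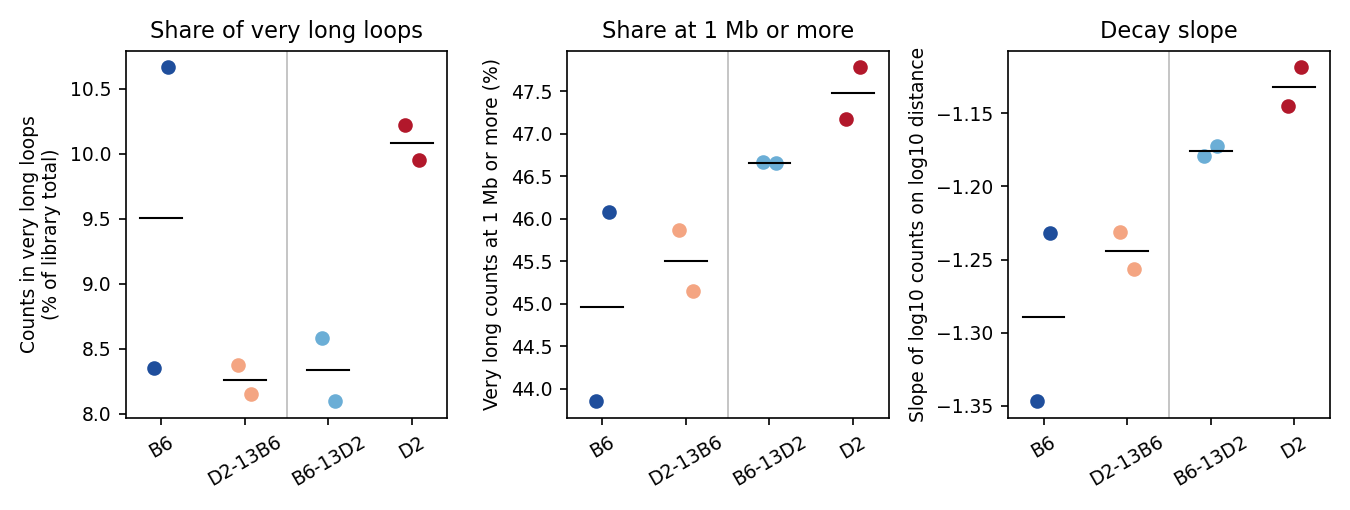
Points are the 8 libraries and bars the means of each line, with lines holding the B6 allele of the interval left of the grey line and those holding the D2 allele right of it. The panels show very long counts in percent of the library total, the percent of very long counts at 1 Mb or more, and the decay slope. In the middle and right panels every D2-allele library lies above every B6-allele library, and in the left panel the B6 libraries lie apart at 8.35% and 10.7%.

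Recurrent very long loops joined genes to genes. Both anchors held the start of a protein-coding gene, or lay within 5 kb of one, in 70.1% of the 3092 loops, against 53.7% of 14749 recurrent loops of 100 to 500 kb and 42.8% of 17899 of 20 to 100 kb. Neither end had one in 3.20%, 10.4% and 18.7%. At 1 Mb or more, both ends had a start in 73.5% of 1123 loops. Anchors of the very long loops were wider, with a median of 20 kb against 10 kb, and a wider anchor has more room for a gene start. Among loops with both anchors 15 to 40 kb wide, both ends had a start in 68.6% of 1178 very long loops and 59.0% of 3917 loops of 100 to 500 kb. At total counts of 16 to 60 the shares were 68.5% and 51.2%. In very long loops that were not recurrent, the share was 32.8%.

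GC content did not set these anchors apart, with a median of 45.5% in both span classes. The CTCF-like motif was found in 32.3% of anchors of recurrent very long loops, but per megabase of anchor it was as frequent as in those of 100 to 500 kb, 17.2 against 16.9, and 14.3 over all anchors. Motif pairs in convergent orientation occurred in 158 very long loops (5.11%), and in divergent orientation in 204 (6.60%). At 100 to 500 kb the order was the other way, with 399 convergent and 371 divergent loops. A match to these letters is a description of the sequence and not a bound site.

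**Figure D3:**
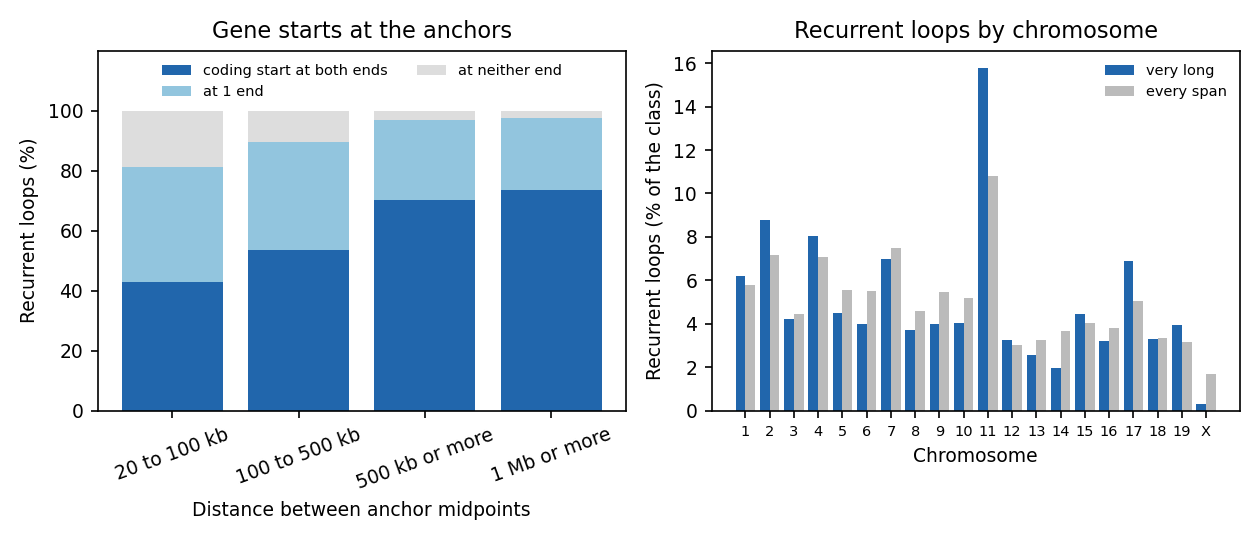
Left, percent of recurrent loops in each distance class with a protein-coding gene start at both anchors, at 1 or at neither; both-end loops rise from 42.8% at 20 to 100 kb to 70.1% at 500 kb or more. Right, percent of recurrent very long loops and of recurrent loops of every span on each chromosome, where chromosome 11 holds 15.8% and 10.8%.

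A few anchors took part in many very long loops. The 3092 loops used 2623 anchors, 8.73% of all anchors. Of these, 1436 had a single very long partner, and 66 had 10 or more and touched 28.6% of the loops. Among those with the most partners, the anchor at Snx11, Cbx1 and Nfe2l1 (chr11:96765001-96835000) had 26, where Cbx1 codes for a heterochromatin protein. The anchor at Actn4, Eif3k and Map4k1 (chr7:28915001-28985000) had 25, that at Tmub2, Atxn7l3 and Ubtf (chr11:102275001-102350000) 24, and that at the coactivator gene Ncoa3 (chr2:165960001-166040000) 23. Both hubs on chromosome 11 had their highest counts in D2-13B6, the line with more of its counts on that chromosome: the Cbx1 hub had 474 and 499 very long counts there and 177 to 346 in the other libraries, and the Ubtf hub 341 and 341 against 135 to 211. In edgeR's quasi-likelihood test on anchor sums, described below, the effect of the D2 allele at the Cbx1 hub was -0.40 on the log2 scale (SE 0.09, adjusted p = 0.0169), and with scaling within each chromosome -0.12 (adjusted p = 0.680). The background effect at the Ubtf hub was 0.34 (SE 0.10, adjusted p = 0.0155), and 0.04 with that scaling (adjusted p = 0.878).

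Chromosomes differed in how many very long loops they held. Chromosome 11 had 488 of the 3092 (15.8%), with 6.29% of all anchors and 10.8% of recurrent loops of every span. The 2 deep D2-13B6 libraries, which hold more counts on chromosome 11, can meet the recurrence filter alone. Without them, a choice made after seeing the data, 258 of 2062 recurrent very long loops (12.5%) lay on chromosome 11, and 9.63% of those of every span. On chromosome 17, with 213, very long loops were 9.43% of the recurrent loops, on chromosome 19 they were 8.66%, and on the X chromosome 10 loops made up 1.31%.

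The strongest loops were ranked by mean level over the 4 lines. The loop from Srsf1, a splicing factor gene, to Coil and Trim25 (chr11:88010001-88055000 to chr11:88920001-89050000, 952.5 kb) had 30 and 31 counts in B6, 32 and 17 in D2, 53 and 54 in B6-13D2, and 55 and 63 in D2-13B6. Its background effect was -0.17 on the log2 scale (SE 0.18, adjusted p = 0.669 in edgeR's quasi-likelihood test). The loop from Sp1, a gene for a general transcription factor, to Cbx5 and Hnrnpa1 on chromosome 15 (820 kb) had 18 and 23 counts in B6, 31 and 22 in D2, 46 and 47 in B6-13D2, and 34 and 43 in D2-13B6. On chromosome 17, Trim39 and Rpp21 met the anchor of the imprinting regulator Zfp57 over 727.5 kb, with 30, 23, 34, 38, 40, 41, 40 and 69 counts in the order B6, D2, B6-13D2, D2-13B6, replicate 1 before replicate 2. The same order is used below. The loop from Vdac1 to Hspa4 on chromosome 11 (942.5 kb) had 21, 33, 24, 21, 22, 50, 46 and 72 counts. None of these 4 loops was called in any of the 6 contrasts described below. The loop from Aurkb and Per1, genes for a mitotic kinase and a circadian repressor, to Fxr2 and Sox15 on chromosome 11 (607.5 kb) had 20, 14, 22, 26, 23, 32, 50 and 58 counts, with a background effect of 0.66 (SE 0.21, adjusted p = 0.0285). With scaling within each chromosome this effect was 0.40 and not called (adjusted p = 0.272).

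Of 37 genes of the pluripotency list, all had an anchor at their start and 20 had a recurrent very long loop, 71 loops in all. Esrrb, which codes for a nuclear receptor of the naive state, had the strongest of them, the convergent loop to Vipas39 (chr12:86450001-86525000 to chr12:87265001-87340000, 815 kb). The RefSeq promoters of Esrrb (chr12:86360867-86361166 and chr12:86421394-86421693) lay outside this anchor, which was assigned by a GENCODE transcript start. The loop's counts were 35 and 23 in B6, 31 and 27 in D2, 24 and 45 in B6-13D2, and 41 and 39 in D2-13B6, and the lines overlapped (background effect 0.03, SE 0.19, adjusted p = 0.952). Sox2, a core pluripotency factor gene, met Fxr1 630 kb away with 11, 8, 15, 7, 10, 12, 27 and 17 counts. Etv5, a target of FGF signalling, met Eif4a2 and Rfc4 692.5 kb away with 21, 15, 17, 29, 18, 46, 33 and 41 counts. Tdgf1, a Nodal co-receptor gene, met Cdc25a and Map4 over 1047.5 kb with 12, 5, 17, 15, 8, 12, 10 and 21 counts. None of the 71 loops was called in any contrast, where 3.46% of all recurrent very long loops were called for the background and at most 0.55% in any other contrast, and their median background effect was 0.19 against 0.11 over all recurrent very long loops.

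Developmental regulators, which are mostly silent in stem cells, mostly had no anchor. Of 64 such genes 20 had one, and 2 of these 20 had a recurrent very long loop, in 3 loops, where 8.73% of all anchors had one. Hox genes entered this list only where their start or body lay at an anchor. Hoxb13 met the Cbx1 hub with 3, 2, 3, 2, 2, 4, 7 and 8 counts, and Foxd3 met the non-coding gene Gm12851 with 2, 1, 5, 2, 5, 8, 1 and 5 counts. Ribosomal protein genes, listed only where their start or body lay at an anchor, had 88 loops at 35 of 83 genes. Of these loops 2 were called higher with the D2 background and none lower, where 2.07% and 1.39% of all recurrent very long loops were. Rpl7l1 met the cyclin gene Ccnd3 over 790 kb with 15, 15, 17, 19, 20, 27, 25 and 31 counts. Rpl28 met the embryonic stem cell miRNA cluster Mir290 to Mir295 over 1597.5 kb with 14, 4, 4, 5, 13, 19, 13 and 15 counts. Genes for factors that bind at loops and enhancers had 21 loops at 7 of 16 genes, none of them called. The cohesin gene Rad21 met Trps1 over 1112.5 kb with 4, 2, 7, 6, 7, 10, 3 and 9 counts.

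Between the D2 and B6 backgrounds, 107 of the 3092 recurrent very long loops were called, that is, had an adjusted p under 0.05 in edgeR's quasi-likelihood test over the whole table. Of these 64 were higher and 43 lower with the D2 background, against 4.28% and 4.57% of loops of every span. In 45 of the 64 and 29 of the 43, the libraries of the lower background alone would not have met the recurrence filter, so the filter favoured their direction and counts over these loops are described only. For named loops of this kind the p given below is that of the fit with no filter on low counts. The share, 3.46%, was below the 8.85% called among tested loops of every span. At totals of 50 to 100 counts, 5.99% of very long loops were called, 5.61% of loops of 100 to 500 kb, 7.09% of 20 to 100 kb and 10.6% of those under 20 kb or inside 1 anchor. At 100 counts or more these shares were 10.0%, 10.5%, 18.6% and 23.3%. This last class ran up to 10000 counts, with a highest very long total of 518, and the spans were not matched for count within it. Chromosome 11 held 14 of the 107 and chromosome 13 held 9. The median background effect of recurrent very long loops was 0.40 on chromosome 11, 0.36 on chromosome 13 and 0.05 on the others, and the part of the chromosome 11 shift in single calls there was not tested. With scaling factors set within each distance class, 106 loops were called and 50 of them were higher, so the balance of directions depended on the scaling. DESeq2 called 7, of which 4 were higher. Leaving out 1 library at a time left 61 to 94 calls, with 61 without B6-13D2 replicate 2 or D2-13B6 replicate 2, 63 without B6 replicate 1 and 69 without D2 replicate 1.

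The loop with the largest count of all, on chromosome 7, was a D2-background loop. It joined Gm6871 and 2610021A01Rik (chr7:41555001-41605000) to the zinc finger gene Zfp141 (chr7:42490001-42515000), 922.5 kb apart, whose promoters are printed above. It had 4 and 13 counts in B6, 7 and 10 in B6-13D2, 91 and 122 in D2, and 131 and 140 in D2-13B6. The backgrounds did not overlap, as in 4.24% of recurrent very long loops with D2 higher and 5.15% of recurrent loops of every span. Loops named for a call, here and below, were taken only where the sides compared did not overlap. The background effect was 3.73 on the log2 scale (SE 0.20, adjusted p = 1.73e-73 in edgeR's test). At the Gm6871 end, shorter contacts changed the opposite way: loops under 500 kb summed at that anchor fell by 0.65 on the log2 scale with the D2 background (adjusted p = 2.37e-09). At the Zfp141 end the shorter sum had an effect of -0.26 (adjusted p = 0.0878).

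The zinc finger cluster at the end of chromosome 4 held several loops of this kind, but not all there went this way. Loops ending at Zfp991, Zfp986 and the non-coding gene Gm13161 had background effects of -3.47, 0.02 and -0.33, and none of these was called. The Zfp991 loop met the recurrence filter only with B6-background libraries. Zfp981 (chr4:146510001-146520000) met Zfp985 (chr4:147545001-147570000) with 0 and 4 counts in B6, 3 and 1 in B6-13D2, 20 and 21 in D2, and 26 and 18 in D2-13B6 (background effect 3.26, SE 0.40; adjusted p = 1.77e-11 in edgeR with no filter). Zfp981 met Zfp984 (chr4:147770001-147780000), a loop named after its values were seen, with 0 counts in all 4 B6-background libraries, 9 and 10 in D2, and 15 and 22 in D2-13B6. Against a floor of 3 counts over the 4 B6-background libraries it was at least 17.3-fold higher. The RefSeq promoter of Zfp984 (chr4:147809739-147810038) lay outside the anchor given for that gene, which was assigned by a GENCODE transcript start. Shorter sums at these 3 anchors fell with the D2 background, by 1.01 at Zfp981, 0.73 at Zfp985 and 2.12 at Zfp984 on the log2 scale (adjusted p from 9.85e-13 to 1.48e-06). The zinc finger list held only genes with a start or body at an anchor, so its share with an anchor is no finding. Of its 364 genes, 352 had an anchor at their start and 74 had a recurrent very long loop. Their 196 loops included 7 called higher and 2 called lower, where 2.07% and 1.39% of all recurrent very long loops were, with a median background effect of 0.04.

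In several of these loops the counts sat in 1 spot. The median recurrent very long loop had 11.4% of its counts in its strongest pair of 5-kb bins. In 15 loops that share was 50% or more; 11 of them were called higher with the D2 background, none lower, and 8 lay on chromosome 4. All 11 met the recurrence filter only with the D2-background libraries, so their direction is no finding. Among the 2985 loops that were not called, 4 reached 50%. The Zfp981 to Zfp984 loop had 45 of 56 counts in 1 bin pair (80.4%), and a loop on chromosome 12 from Gm21863 to the non-coding gene Zfp125, also named after its values were seen, had all 31, with 1, 0, 8, 3, 0, 0, 13 and 6 counts per library. By contrast the Esrrb loop had 2.26% of its counts in its strongest pair. Without the 15 loops, 53 were called higher and 43 lower.

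Sequence in those bin pairs was often repeated. In 7 of the 15 loops, 5% or more of the 31-base words of one strongest bin also occurred in the other, on either strand, against 11 of all 3092 loops (0.356%). The 7 were 3 of the 11 loops called higher and all 4 that were not called. Between the strongest bins of the Zfp981 to Zfp984, Map3k7, Zfp981 to Zfp985 and Lactb2 loops the shared words were 4.77%, 2.09%, 1.77% and 0.371%. The Gm14393 to Gm14401 loop, whose near-identical motif windows lie outside its strongest bins, shared 37.2% of its words and had 46 of 51 counts in 1 bin pair. It was not called for the background, with 4, 6, 4, 2, 8, 14, 4 and 9 counts (effect -0.81, SE 0.45, adjusted p = 0.296). The chromosome 7 loop shared 9.03% and had 31.3% of its counts in 1 pair. How reads that match several copies were placed is not given in the sources used here, and its part in these counts was not tested.

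**Figure D4:**
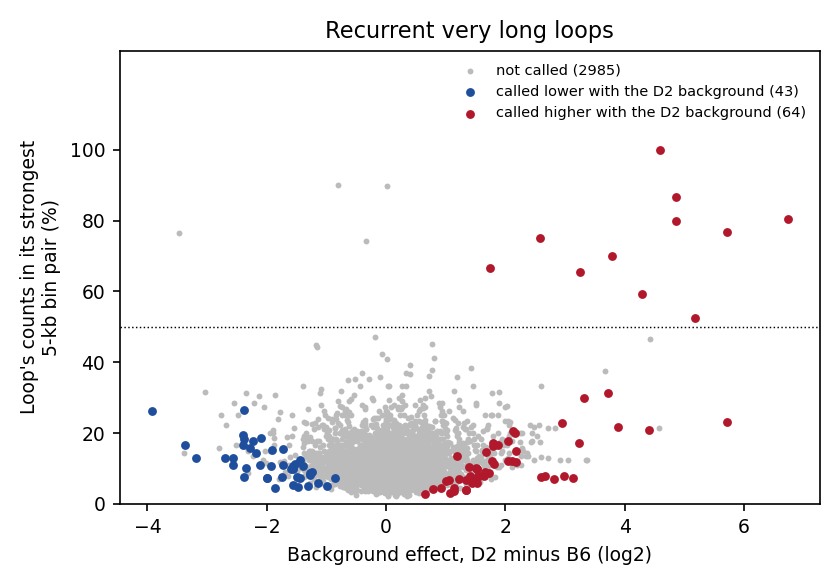
Each point is 1 of 3092 recurrent very long loops: the horizontal axis is the background effect on the log2 scale (D2 minus B6) and the vertical axis the percent of its counts in its strongest pair of 5-kb bins, with a dotted line at 50%. Red points are the 64 loops called higher and blue points the 43 called lower. Of the 15 loops above the line, 11 are red and none is blue, and the recurrence filter fixed the direction of the 11.

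Loops with 0 counts in every B6-background library numbered 8, the Zfp984 loop among them, and 0 loops had 0 counts in every D2-background library. These 8 loops passed the recurrence filter through the D2-background libraries alone, so they had to be higher there and are described only. Another was the Map3k7 loop (chr4:31955001-31980000 to chr4:33970001-33975000), at 2005 kb among the 3 longest recurrent loops, with 9 and 4 counts in D2 and 8 and 5 in D2-13B6. It was at least 8.02-fold higher with the D2 background against the same floor, and 76.9% of its counts lay in 1 bin pair. Map3k7 codes for the TAK1 kinase. A loop into the body of Lactb2 on chromosome 1 had 4, 2, 18, 36, 2, 0, 25 and 30 counts (background effect 3.79, SE 0.39; adjusted p = 4.68e-17 in edgeR with no filter), with 70.1% in 1 pair. The longest recurrent loop, from the DNA demethylase gene Tet2 to Manba (2020 kb), was no D2 loop, with 2, 2, 2, 1, 11, 5, 2 and 8 counts.

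Very long loops across the histone gene cluster of chromosome 13 were lowest in the B6 line. Replication-dependent histone genes, which are transcribed in S phase, had 65 genes on the list, 57 of them at 32 recurrent very long loops. This list too held only genes with a start or body at an anchor. Among these 32 loops 6 were called higher and 1 lower with the D2 background, where 2.07% and 1.39% of all recurrent very long loops were, and their median effect was 0.77 against 0.11 over all recurrent very long loops. Within the B6 background their median for B6-13D2 against B6 was 1.02 (0.08 over all), within the D2 background that for D2 against D2-13B6 was -0.01 (-0.00386 over all), and the median interaction was -1.02 (-0.11 over all). On chromosome 13, 8 loops had a histone start at both ends, 1527.5 to 1995 kb apart. These 8 share anchors and are not independent. All had an effect above 0 and 5 were called. Loops from Hist1h4k and Hist1h1b to the anchor chr13:23735001-23770000, and from Hist1h2bq to the Hist1h4h anchor, were not called. In these the B6-background libraries alone would not have met the recurrence filter, so it favoured their sign. Among the 6 called higher, the loop from Hist1h2bk to chr13:23410001-23415000 met the filter only with the D2-background libraries. Summed over the 8, levels were 19.6 and 38.5 CPM in B6, 64.9 and 72.4 in B6-13D2, 95.5 and 108 in D2, and 93.4 and 131 in D2-13B6, so the B6 line was lowest and B6-13D2 lay between it and the D2-background lines.

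The strongest of them joined the Hist1h2bk cluster (chr13:22020001-22055000) to the Hist1h4h cluster (chr13:23530001-23600000). It had 10 and 11 counts in B6, 17 and 37 in B6-13D2, 24 and 29 in D2, and 46 and 69 in D2-13B6 (background effect 1.13, SE 0.22, adjusted p = 2.61e-05). The Hist1h4j cluster (chr13:21710001-21740000) met the Hist1h4h cluster with 2, 7, 13, 15, 10, 16, 19 and 27 counts (1.14, SE 0.32, adjusted p = 0.0068). In TMM-scaled CPM, all D2-background libraries lay above all B6-background libraries in both loops, and B6-13D2 lay above B6. Shorter loops at these anchors were higher too: sums under 500 kb had background effects of 0.48 at the Hist1h2bk cluster, 0.81 at the Hist1h4j cluster and 0.74 at the Hist1h4h cluster (adjusted p from 1.88e-13 to 1.88e-05). The counts of both loops were spread over many bins, with 4.53% and 3.67% in the strongest pair.

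The loop from the Hist1h2bk cluster to the Hist1h2bb cluster (chr13:23735001-23770000), whose H2B promoters are shown above, was low in B6 alone. It had 1 and 2 counts in B6, 12 and 12 in D2, 14 and 11 in B6-13D2, and 11 and 20 in D2-13B6. It was the only very long loop called in B6-13D2 against B6, where 0.879% of tested loops of every span were called. The ratio of B6-13D2 to B6, from 25 counts against 3, was 6.18 with a 95% counting interval of 1.89 to 31.98 (adjusted p = 0.0368), and this call was lost in 7 of 16 alternatives. D2 against B6, from 24 counts against 3, gave 8.54 (2.59 to 44.3, adjusted p = 0.0013 in edgeR's test), and this call was lost in 2 of 16 alternatives.

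Beside these, Btn2a2 lost very long contacts with the D2 background. Btn2a2 codes for a butyrophilin of the immunoglobulin superfamily and its anchor (chr13:23485001-23520000) lies next to the Hist1h4h cluster. Its loop to the Zfp184 anchor (chr13:21895001-21950000) had 20 and 24 counts in B6, 35 and 44 in B6-13D2, 11 and 7 in D2, and 9 and 10 in D2-13B6 (background effect -1.74, SE 0.27, adjusted p = 6.83e-09). Its loop to the Hist1h2bk cluster had 14, 12, 5, 1, 16, 12, 3 and 5 counts (-2.001, SE 0.39, adjusted p = 1.81e-05). No D2-background library reached a B6-background library in either, as in 2.62% of recurrent very long loops and 5.65% of recurrent loops of every span. Summed over all its very long loops the anchor fell by 1.82 on the log2 scale and over its shorter loops it changed by -2.001, so both ranges moved alike. From the same Zfp184 anchor, the loop to Abt1 had 25, 15, 24, 22, 29, 33, 49 and 44 counts and an effect of 0.32 (adjusted p = 0.414).

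Further loops were lower with the D2 background: Macf1 to a non-coding anchor on chromosome 4 (12, 14, 5, 3, 20, 22, 6 and 5 counts; -1.87, SE 0.35), Chmp4c and Zfand1 to an anchor without a gene start on chromosome 3 (5, 6, 1, 1, 13, 17, 4 and 2; -2.38, SE 0.54; adjusted p = 0.00919 with no filter) and Ubd to a non-coding anchor on chromosome 17 (7, 8, 5, 2, 20, 9, 2 and 2; -2.001, SE 0.45; adjusted p = 0.0103 with no filter). In the other direction, a loop into the deubiquitinase gene Usp7 on chromosome 16 had 5, 0, 16, 4, 0, 1, 10 and 18 counts (3.14, SE 0.54; adjusted p = 2.66e-05 with no filter).

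Loops called for the background differed in whether their ends moved at shorter range too. Of the 64 higher loops, 50 (78.1%) had at least 1 end whose sum of loops under 500 kb was also called higher, 7 had an end called only in the opposite direction and 7 had neither. Of the 43 lower loops, 39 (90.7%) had at least 1 end called lower at shorter range and 4 had neither. Over all 3092 loops these shares were 39.7% for higher and 30.6% for lower.

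Sums of very long counts per anchor gave a denser view. Of 6959 anchors tested, 453 (6.51%) were called for the background, 218 higher (3.13%) and 235 lower (3.38%) with D2, 87 of them on chromosome 11, where 84 were higher. With scaling within each chromosome 344 were called, 158 of them higher, and with whole-table library sizes 403, 254 of them higher. Of the 448 called anchors with a testable shorter sum, 428 had the same sign at shorter range, and 356 of those were called there too, where 26% of all shorter sums were called for the background (12.6% higher and 13.4% lower). In 76 of the 218 and 75 of the 235, the lower background alone would not have met the minimum of 10 counts in 2 libraries, so the filter favoured their direction. At 5 anchors both sums were called with opposite signs: Zfp981, Zfp985, Zfp984, the Gm6871 anchor, and the Zfp125 anchor on chromosome 12, all higher at very long range and lower at shorter range with the D2 background. The Zfp984 and Zfp125 anchors met the filter only with the D2-background libraries, and with no filter their very long effects were 1.61 (adjusted p = 0.00313) and 2.10 (adjusted p = 0.0131) in edgeR's test. Both Zfp141 (31 and 30 counts in B6, 17 and 29 in B6-13D2, 105 and 136 in D2, 147 and 160 in D2-13B6) and Zfp981 (8 and 16, 16 and 24, 54 and 57, 90 and 81) had summed counts that did not overlap between backgrounds. Leaving out 1 library at a time gave 242 (without D2 replicate 2) to 365 called anchors, and DESeq2 gave 50.

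In D2 against B6 alone, 17 very long loops were called (0.55%, against 2.65% of loops of every span), 16 higher and 1 lower (1.38% and 1.26% of loops of every span), with 6 of the 17 on chromosome 13. With scaling within each distance class 12 of 17 were higher. This comparison shares its libraries with the background contrast, and the Gm6871, Zfp981, Lactb2 and histone loops above led it. Calls numbered 8 without B6 replicate 1, 11 without D2 replicate 1 and 10 without D2 replicate 2. DESeq2 called 3.

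Few very long loops were called between alleles of the chromosome 13 interval. Averaged over both backgrounds, 5 were called (0.162%, against 0.989% of loops of every span), 3 higher and 2 lower (0.445% and 0.544% of loops of every span). At totals of 50 to 100 counts, 0.528% of very long loops were called, 0.352% of those of 100 to 500 kb, 0.515% of 20 to 100 kb and 0.599% of those under 20 kb or inside 1 anchor. Chromosome 13 held 1 of the 5, the Hist1h2bk to Hist1h2bb loop (1.48, adjusted p = 0.0395). An anchor without a gene start on chromosome 1 met Trip12, a ubiquitin ligase gene, and Fbxo36 with 1 and 2 counts in B6, 3 and 6 in D2-13B6, 6 and 10 in D2, and 7 and 13 in B6-13D2 (1.90; adjusted p = 0.298 with no filter). Pik3r4 met Wdr82 on chromosome 9 with 6 and 6 counts in B6, 16 and 18 in D2-13B6, 3 and 2 in D2, and 2 and 3 in B6-13D2 (-1.80; adjusted p = 0.446 with no filter). The Actn4 hub met the body of Sipa1l3 on chromosome 7 with 15, 15, 10, 5, 5, 12, 26 and 22 counts (-1.07, adjusted p = 0.0444). Neither the Trip12 nor the Pik3r4 loop would have met the recurrence filter without its high side. The Trip12, Pik3r4 and Sipa1l3 loops lost theirs in 6, 10 and 12 of 16 alternatives, and without 1 library the count of calls ran from 0 (D2-13B6 replicate 1) to 6 (B6-13D2 replicate 2).

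Anchor sums showed 39 of 6959 called for the interval (0.56%), 10 higher (0.144%) and 29 lower (0.417%) in D2-allele lines. Chromosome 11 held 21, all lower, and chromosome 13 held 1. With scaling within each chromosome 26 were called, 13 of them higher, and 17 were among the 39. With whole-table library sizes 9 of 16 were higher. Of these 39, 38 had the same sign at shorter range, where the interval effect was called at 6.43% of anchors (2.99% higher and 3.44% lower). Atf7ip, whose product acts with the histone methyltransferase SETDB1, had higher very long sums with the D2 allele: 34 and 49 counts in B6, 66 and 61 in D2-13B6, 74 and 61 in D2, and 90 and 101 in B6-13D2 (0.77, SE 0.14, adjusted p = 0.000856). Its shorter sum had an effect of 0.06 (adjusted p = 0.712). Gsk3b, a gene for a kinase that CHIR99021 inhibits, had 14, 10, 18, 14, 20, 39, 9 and 7 counts (1.26, SE 0.27, adjusted p = 0.0107). The anchor of Obox6 and Crx was lower with the D2 allele (17, 15, 8, 8, 2, 4, 19 and 19 counts; -1.68, SE 0.33; adjusted p = 0.00854 with no filter, since no D2-allele library reached 10 counts) and so was that of Blmh on chromosome 11 (51, 52, 26, 39, 36, 57, 118 and 92 counts; -0.80, SE 0.15). With scaling within each chromosome the Blmh effect was -0.53 and not called (adjusted p = 0.145 in edgeR's test). Of 14 alternatives, the Atf7ip, Gsk3b, Obox6 and Blmh calls were lost in 2, 4, 2 and 3. The count of anchors called was 1 without D2 replicate 1, 10 without D2 replicate 2, and 16 to 20 without B6 replicate 1, B6-13D2 replicate 1 or D2-13B6 replicate 1.

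In D2 against D2-13B6, 2 very long loops were called (0.0647%, against 0.91% of loops of every span), both lower in D2, as were 0.722% of loops of every span, and both on chromosome 11. Igf2bp1, a gene for an mRNA-binding protein, met the Cbx1 hub with 14 and 20 counts in D2 and 66 and 86 in D2-13B6, and with 26 and 25 in B6 and 21 and 52 in B6-13D2 (D2 against D2-13B6 -1.38, adjusted p = 0.000237). Ppp2ca, a phosphatase subunit gene, met Hspa4 with 1 and 0 counts in D2 and 11 and 12 in D2-13B6, a ratio of 13.5 (95% counting interval 2.19 to 555). With scaling factors set within each chromosome the effects were -0.92 for the Igf2bp1 loop (adjusted p = 0.127) and -3.08 for the Ppp2ca loop (adjusted p = 0.186), against -1.38 and -3.52, so neither was called. Over all 16 alternatives the Igf2bp1 call was lost in 4 and the Ppp2ca call in 7. The interaction of interval and background called 2 loops (0.0647%, against 0.602% of loops of every span, 0.0537% higher and 0.548% lower): the Igf2bp1 loop (-1.46, adjusted p = 0.0467) and a loop to Gldc, a glycine cleavage enzyme gene, on chromosome 19 (3.67, adjusted p = 0.0304; 7, 6, 9, 7, 4, 1, 2 and 5 counts). These calls were lost in 13 of 16 and 10 of 15 alternatives.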

How the data were processed

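H3K27ac MNase HiChIP was measured in 8 libraries of 4 mouse embryonic stem cell lines. The deposited table holds raw counts of read pairs per loop for each library, and the deposited file of each library holds counts per pair of 5-kb bins, with no normalization found in the values; their totals agreed in all 8 libraries. The submitters' processing notes name mm10, BWA 0.7.18, SAMtools 1.19.2 and edgeR 3.34.1 without their roles; the loop caller is not given in the sources used here. Counts are read pairs without molecular identifiers, so intervals cover counting error only.

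Members, gene lists and named loops were chosen with earlier results of these data known. The members are all rows with anchor midpoints 500 kb or more apart. The rule for named loops took the 10 strongest recurrent loops, up to 4 called per contrast and direction with the smallest adjusted p and no overlap between sides (no such condition for the interaction), skipping loops with both ends within 250 kb of a named one; the 3 longest; the 5 anchors with most partners; up to 3 called anchor sums per direction, at least 1 Mb apart; and the strongest loops of up to 4 genes per list. Some named items are not reported here. Recurrent loops (5 or more counts in 2 or more libraries) of every span entered 1 fit, with 1 mean per line and TMM factors, in edgeR 4.0.16 (R 4.3.3), and Benjamini-Hochberg adjustment over all 44706 at 0.05. Very long counts were also summed per anchor (10 or more in 2 or more libraries). Comparisons of per-library values used exact permutation tests. The sums of loops under 500 kb, the bin pairs, the shared 31-base words and the classes of equal width were added after seeing the data. On simulated counts for the background contrast over 44706 loops, 7% of 2-fold and 54% of 4-fold changes were recovered. Gene starts came from GENCODE M21 on GRCm38, and positions are 1-based. The alternatives were other scaling, filters, DESeq2 1.42.0, a replicate block, and leaving out each library.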

Additional observations from a re-analysis of the deposited data

Results flagged for a closer look

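Among the 4 libraries with the B6 allele of the interval, B6 replicate 2 stood apart in its share of very long counts, at 10.7%, where the other 3 had 8.15% to 8.38%. It is also the library with the fewest counts. Chance sets about 1 in 20 groups apart in this way, and of 34 groups looked at 4 had such a library.

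In 3 background loops 1 library stood apart from the other 3 of its background. In the Lactb2 loop on chromosome 1 it was D2 replicate 2, at 46.9 CPM. In the Usp7 loop on chromosome 16 it was B6 replicate 1, at 5.15 CPM, where the other 3 B6-background libraries had 0, 0 and 1 counts. In the Chmp4c loop on chromosome 3 it was D2-13B6 replicate 1, at 2.92 CPM.

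An interaction of interval and background was called by edgeR's quasi-likelihood test in the Igf2bp1 to Cbx1 loop on chromosome 11 (log2 difference -1.46) and in the Gldc loop on chromosome 19 (3.67). These calls were lost in 13 of 16 and 10 of 15 alternatives. With scaling within each chromosome the Igf2bp1 interaction was -1.03 (adjusted p = 0.372 in the same test).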

How the results depend on the processing

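The background contrast called 107 loops, and 99 to 106 under the other scalings (91 shared with TMM within each chromosome, 93 within each distance class) and 94 with the replicate block. The count moved further with no filter (31), at least 10 counts in 2 libraries (56), DESeq2 (7), a distance of 1 Mb or more (40) or an FDR of 0.01 (44); without 1 library it gave 61 to 94. D2 against B6 gave 6, 3, 11 and 8 calls with no filter, DESeq2, 1 Mb or more and FDR 0.01, and 8 to 19 without 1 library. B6-13D2 against B6 gave 0 with no filter, DESeq2, the replicate block and FDR 0.01, and 1 to 2 without 1 library. D2 against D2-13B6 gave 0 with TMM within each chromosome and with DESeq2, 1 with no filter, 1 Mb or more and FDR 0.01, and 0 to 2 without 1 library. The interval contrast gave 3 with TMM within each chromosome and with the replicate block, 2 at 1 Mb or more, 0 with no filter, DESeq2 and FDR 0.01, and 0 to 6 without 1 library. The interaction gave 1 with RLE factors, library totals, TMM within each chromosome or distance class, and no filter, 0 with the other filter, DESeq2, the replicate block, 1 Mb or more and FDR 0.01, and 0 to 2 without 1 library. At an unadjusted p under 0.05, edgeR had 254, 230, 196, 234, 390 and 189 very long loops in the parental, B6-background, D2-background, interval, background and interaction contrasts.

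Anchor sums for the background gave 50 with DESeq2, 421 with the replicate block and 242 to 365 without 1 library; for the interval they gave 16 with whole-table library sizes, 22 with no filter, 0 with DESeq2, 29 with the block and 1 to 36 without 1 library. The replicate numbers did not pair the lines: deviations of same-numbered libraries correlated at -0.0814 to 0.0469. Loops with gene starts at both ends were 75.1% under the higher filter and 65.0% counting starts inside the anchor alone, and convergent motifs were in 7.64% under the higher filter. Without 1 library, differences in very long share ran from -0.0980 to 0.831 points (background, reversed in 3), -0.00848 to 0.920 (allele, reversed in 1) and 1.21 to 1.98 (parental). For the share at 1 Mb or more they ran from 0.0277 to 1.13, 1.37 to 2.11 and -0.384 to 0.925 (reversed in 3), and for the slope from 0.00678 to 0.0678, 0.0860 to 0.125 and -0.0315 to 0.0446 (reversed in 4). The 33 effects recomputed for called loops and anchors reversed under none of their alternatives; other named loops and the hubs were not recomputed under all of them. The causes of these shifts were not tested. Depth limits single loops, whose median total over 8 libraries was 33 counts.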
